A study of Mus musculus with 12 samples.

Results

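The genes described here encode the nuclear subunits of the mitochondrial respiratory chain, with a few factors that assemble it, in the forebrain of newborn mice. They were chosen by name from the genes that had a probe set of their own on the array: symbols starting with Ndufa, Ndufb, Ndufc, Ndufs or Ndufv (complex I), Uqcr (complex III) or Cox4 to Cox8 followed by a, b or c (complex IV), together with Sdha, Sdhb, Sdhc and Sdhd (complex II). The rule used no measured value except to keep the brightest probe set where a gene had several. It found 70 of the 19938 genes. Of these, 63 are subunits or their tissue isoforms, and 7 are assembly factors of complex I (Ndufaf1 to Ndufaf7) that the name pattern takes in. For Cox7c and Ndufb4 the annotation listed only probe sets that also read another gene, so they have no value here.

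RNA of mice at postnatal day 0 was measured on 12 arrays, 3 biological replicates in each of 4 genotypes; array 1, 2 or 3 of a group below is its replicate of that number. GBS mice were hGFAP-cre::Ctnnb1(ex3)Fl/+SmoM2Fl/+, and their samples are labelled as tumor. GS mice were hGFAP-cre::SmoM2Fl/+, GB mice were hGFAP-cre::Ctnnb1(ex3)Fl/+, and Control mice were Ctnnb1(ex3)Fl/+SmoM2Fl/+, with both floxed alleles and no Cre; the samples of these 3 groups are labelled as forebrain. None of the mice was treated. SmoM2 is a form of Smoothened that signals without ligand, and removal of Ctnnb1 exon 3 leaves a beta-catenin that escapes degradation. The hGFAP promoter drives Cre in radial glia and their descendants, so other cells of the tissue keep the unrecombined alleles. All groups that carry Cre are compared with a group that lacks it, and an effect of Cre itself cannot be told apart from that of the alleles.

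The chain sits in the inner mitochondrial membrane. Complex I takes electrons from NADH and complex II takes them from succinate; complex III passes them on to cytochrome c, and complex IV hands them to oxygen. Complexes I, III and IV pump protons, and ATP synthase uses the gradient to make ATP. Most subunits are encoded in the nucleus and a smaller set in the mitochondrial genome, so expression of both has to be matched. Neurons rely heavily on this system, while dividing precursor cells rely more on glycolysis.

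Values are log2 intensities made by RMA, and a difference between groups is a difference of log2 means. Genes were tested if they exceeded the 40th percentile on at least 3 of the 12 arrays. Of the 70 genes, 61 did, and 9 did not: Ndufa1, Ndufa2, Ndufa6 and Ndufb3 of complex I, Ndufaf6, Uqcrc1 and Uqcrq of complex III, and Cox7a1 and Cox7b2 of complex IV. The 61 were 6 core and 24 accessory subunits of complex I, 6 of its assembly factors, all 4 subunits of complex II, 6 of complex III and 15 of complex IV. "Called" below means an adjusted p under 0.05 in one limma fit over all 12 arrays, with Benjamini-Hochberg adjustment over all 14195 genes tested. Each adjusted p below is from that fit unless another is named, ± beside a difference is its standard error, and an interval is its 95% interval.

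GB array 2, GS array 3 and Control array 3 stood apart from their groups in a shared direction, and the main counts of calls in GBS against Control are given with and without them. The deviation of GBS array 1 from its group mean, over all genes tested, correlated with theirs too (0.516, 0.507 and 0.446, in that order). No GBS array was left out in that fit, and the 3 left out had the lowest chain-gene medians, as given below. Olfactory and vomeronasal receptor genes, which brain tissue hardly expresses and which therefore read mostly background, had array medians of 4.84 to 4.92 in GBS, 4.88 to 5.23 in GS, 5.02 to 5.35 in GB and 5.12 to 5.23 in Control. Of the targeted genes, Ctnnb1 averaged 8.99 ± 0.173 in GBS, 8.68 ± 0.23 in GS and 8.03 ± 0.418 in GB, against 8.08 ± 0.171 in Control (SD, n = 3 each). It was called higher in GBS than in Control (adjusted p = 0.0138), a call lost on leaving out GBS array 2 (0.071) or Control array 3 (0.0651), and with the covariate (0.0636). In GB, which carries the Ctnnb1 allele, it differed from Control by -0.05, and in GS, which lacks that allele, by 0.60, neither called. Smo averaged 7.44 ± 0.089 in GBS, 7.18 ± 0.054 in GS and 7.21 ± 0.165 in GB, against 7.11 ± 0.134 in Control (SD, n = 3 each), and was not called in GBS against Control (adjusted p = 0.0615); these values do not check the alleles, since which part of each transcript is probed was not analysed here.

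In GBS against Control, the comparison that asks what both alleles do together, 4 of the 61 chain genes were higher and 0 lower: Ndufb11, Uqcrh, Cox6c and Ndufaf1. That is 6.56% of the chain genes, beside 11% of all genes tested that were called higher and 4.35% that were called lower. By the same limma fit without adjustment (p under 0.05), 11 chain genes were higher and 1 was lower, where 20.1% and 18.7% of all genes were. Called in either direction were 15.3% of all genes. The order of the shares called higher turns with the arrays and the fit used: it was 29.5% of chain genes beside 23.5% of all genes without the 3 arrays named above, and 31.1% beside 24.4% with only the GBS and Control arrays fitted. By direction, 42 of 61 differences were positive (68.9%, where 41.1% of all genes had a positive difference). In 24 chain genes (39.3%) all GBS arrays lay above all Control arrays and in 4 (6.56%) all lay below, beside 28.8% and 35.7% of all genes. The median difference was 0.12 over the chain genes and -0.10 over all genes tested. The chain-gene median was 0.07 without GBS array 2, 0.07 after quantile normalization and 0.08 with array weights. It was 0.19 with arrays centred on their medians, and -0.09 with the receptor-gene level as a covariate. All-gene medians of the other settings are not given, here or below, and centring moves every gene of an array by the same amount. In bulk tissue, fewer cells of a type and less RNA per cell cannot be told apart.

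By role, complex III had the highest median, 0.45 over 6 genes with 1 called, followed by the complex I assembly factors with 0.24 over 6 genes and 1 called. Complex IV had a median of 0.15 over 15 genes with 1 called, the core of complex I 0.14 over 6 genes with 0 called (2 at an unadjusted limma p under 0.05), the accessory subunits of complex I 0.11 over 24 genes with 1 called, and complex II 0.09 over 4 genes with 0 called (1 at an unadjusted p under 0.05). Every one of these groups held genes with differences of both signs. Without the 3 deviating arrays the counts called higher were 4 in complex III, 2 in the assembly factors, 4 in complex IV, 2 in the core, 5 in the accessory subunits and 1 in complex II, with 1 lower, in complex IV.

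**Figure D1:**
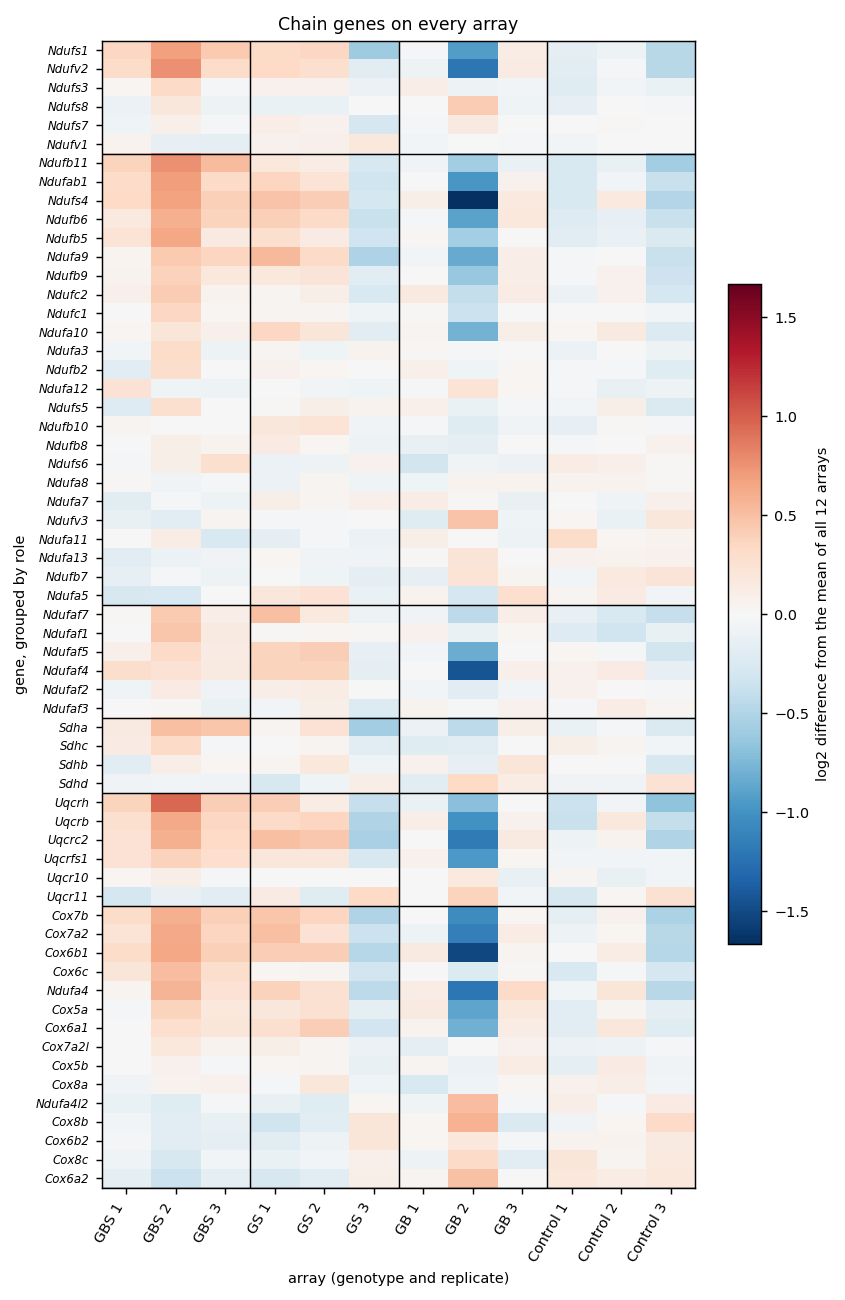
Log2 difference of each of the 61 tested chain genes (rows, grouped by role with a line between groups) from its own mean over all 12 arrays (columns, GBS, GS, GB and Control from left to right). GBS array 2 is the highest array for 29 genes and GB array 2 the lowest for 28, and a set of genes spread over all complexes shares the same pattern over the arrays.

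Ndufb11, an accessory subunit in the membrane arm of complex I, measured 8.89, 9.28 and 9.04 in the GBS arrays, 8.69, 8.64 and 8.25 in the GS arrays, 8.45, 7.94 and 8.41 in the GB arrays, and 8.26, 8.39 and 7.94 in the Control arrays. The GBS arrays lay above all 9 others, while GS, GB and Control overlapped. The gene was higher in GBS than in Control by 0.88 ± 0.18 (1.83-fold, interval 0.48 to 1.27, adjusted p = 0.0108), and it lost its call when GBS array 2 was left out (adjusted p = 0.0571) and when Control array 3 was (adjusted p = 0.0525). Ndufb11 was read by a second, dimmer probe set, which averaged 8.32 ± 0.271 in GBS and 7.94 ± 0.249 in Control (SD, n = 3 each); when every probe set was tested on its own, that one differed by 0.38 ± 0.152 and did not pass (adjusted p = 0.0995). The size of the rise therefore depends on the probe set, and whether either of them reads near-identical copies of the transcript was not analysed here.

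Uqcrh, the hinge protein that helps cytochrome c dock on complex III, measured 8.945, 9.539 and 8.995 in GBS, 8.98, 8.70 and 8.19 in GS, 8.47, 7.88 and 8.59 in GB, and 8.23, 8.53 and 7.91 in Control. GBS lay above GB and Control on every array and overlapped GS, whose first array lay above 1 of the 3 GBS arrays. The rise over Control was 0.94 ± 0.259 (1.92-fold, interval 0.37 to 1.51, adjusted p = 0.0347). The call was lost on leaving out GBS array 2 (adjusted p = 0.159) or 3 (0.0589), GS array 2 (0.0518), or Control array 1 (0.0935) or 3 (0.141).

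Cox6c, a small nuclear-encoded subunit of complex IV, measured 8.68, 9.01 and 8.78 in GBS, 8.52, 8.52 and 8.17 in GS, 8.48, 8.25 and 8.51 in GB, and 8.23, 8.47 and 8.21 in Control. GBS lay above all 9 other arrays. The rise over Control was 0.52 ± 0.133 (1.43-fold, interval 0.23 to 0.81, adjusted p = 0.0271). The call was lost on leaving out GBS array 2 (adjusted p = 0.124) or 3 (0.0562), or Control array 1 (0.0927) or 3 (0.108). Quantile normalization lowered the difference to 0.27 (adjusted p = 0.0538), and the call was also lost with the gene's probe sets averaged (0.0528) and with limma's trend and robust settings (0.0743). A second probe set of Cox6c differed by 0.83 ± 0.306 when tested on its own (adjusted p = 0.0812). Whether either probe set of Cox6c reads near-identical copies of the transcript was not analysed here.

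Ndufaf1, a factor needed to build the membrane arm of complex I, measured 6.86, 7.33 and 7.01 in GBS, 6.88, 6.89 and 6.88 in GS, 6.94, 6.76 and 6.89 in GB, and 6.65, 6.53 and 6.75 in Control. All arrays of each Cre-carrying group lay above the Control arrays, and the 3 Cre groups overlapped with one another. The rise in GBS over Control was 0.43 ± 0.118 (1.34-fold, adjusted p = 0.0361). The differences from Control were 0.24 ± 0.118 in GS and 0.22 ± 0.118 in GB, and neither passed the test. The call was lost on leaving out GBS array 2 or 3, GS array 1 or 2, or 1 Control array, whichever it was (adjusted p of 0.052 to 0.136).

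**Figure D2:**
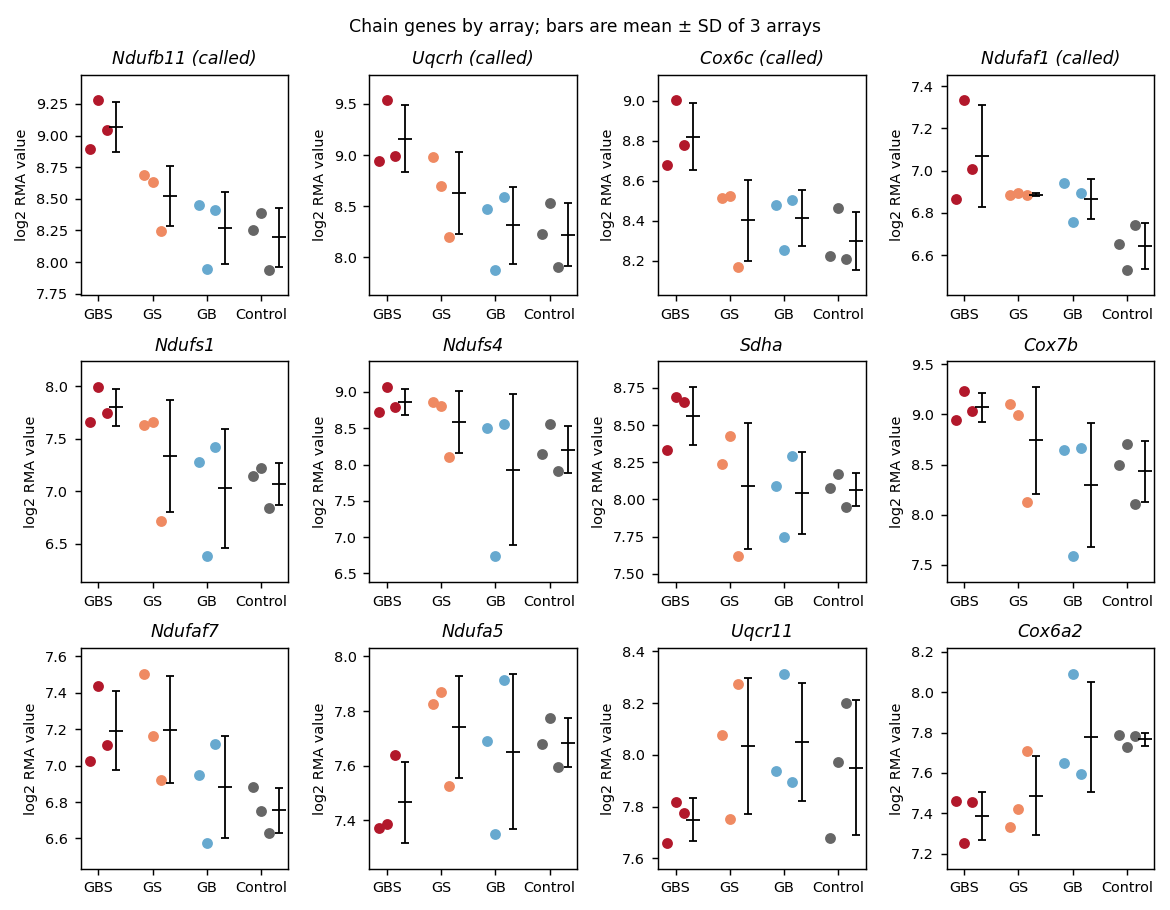
Log2 RMA value (vertical axis, own scale in each panel) of 12 chain genes on each array, by genotype (GBS, GS, GB, Control); points are single arrays in replicate order and bars are the mean ± SD of 3 arrays. The 4 called genes are in the top row; in Ndufs4, GB array 2 lies at 6.73, far below the other 11.

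Uqcrh, Ndufaf1 and Ndufb11 had promoter sequences in the RefSeq table of GRCm38.p6, and Cox6c is named only. Their windows, from 250 bases before to 50 bases after the annotated start, are shown because many promoters of chain genes carry sites for NRF1 and for the ETS-family factor GABPA. Capitals mark CCGGAAG, the core letters of an ETS site, read on either strand; GCGC and TGCGC with 1 base between them, the letters of an NRF1 site, were also searched on both strands and occur in none of the 3 windows.
Uqcrh, chr4:116075021-116075320, minus strand: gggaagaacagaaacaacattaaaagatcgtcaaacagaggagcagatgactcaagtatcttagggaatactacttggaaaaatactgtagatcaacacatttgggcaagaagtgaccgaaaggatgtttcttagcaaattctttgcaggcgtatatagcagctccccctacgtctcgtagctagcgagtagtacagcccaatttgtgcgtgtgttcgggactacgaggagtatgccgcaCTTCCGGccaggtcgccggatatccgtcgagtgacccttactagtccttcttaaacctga
Ndufaf1, chr2:119662785-119663084, minus strand: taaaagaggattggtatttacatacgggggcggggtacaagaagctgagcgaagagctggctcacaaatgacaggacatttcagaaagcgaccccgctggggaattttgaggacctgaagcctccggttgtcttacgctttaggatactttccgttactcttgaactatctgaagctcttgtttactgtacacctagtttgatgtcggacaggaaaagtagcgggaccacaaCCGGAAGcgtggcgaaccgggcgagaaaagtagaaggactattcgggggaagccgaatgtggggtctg
Ndufb11, chrX:20617570-20617869, minus strand: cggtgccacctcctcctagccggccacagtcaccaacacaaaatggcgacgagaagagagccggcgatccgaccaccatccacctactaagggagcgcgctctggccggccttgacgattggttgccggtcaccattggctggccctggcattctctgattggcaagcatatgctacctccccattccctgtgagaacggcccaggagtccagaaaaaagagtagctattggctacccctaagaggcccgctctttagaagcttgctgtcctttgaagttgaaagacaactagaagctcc

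The ETS letters begin 10 bases before the start in Uqcrh and 18 bases before it in Ndufaf1, and the Ndufb11 window holds neither motif. Among the 58 chain genes with a window, 12 (20.7%) held the NRF1 letters and 12 (20.7%) the ETS letters, beside 5.19% and 9.93% of all 27025 genes with a window of the same length. Among the tested chain genes, the 12 with ETS letters had a median difference of 0.15 in GBS against Control (from -0.20 to 0.94), and the 40 without had one of 0.12 (from -0.22 to 0.88). The 10 with NRF1 letters had a median of 0.06 (from -0.22 to 0.50), and the 42 without had one of 0.12 (from -0.22 to 0.94). The genes with NRF1 letters did not reach the upper part of the range of those without, while the ETS split had nearly the same range on both sides. The sides were unequal in size (10 and 42, 12 and 40), and a range widens with the number of genes. No test was run on these ranges. A match of letters is a description, not a site in use.

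The other 57 chain genes were not called in GBS against Control. For 45 of them the interval of the difference lay inside a 2-fold change in either direction, and for 32 inside a 1.5-fold change, while for 12 it reached 2-fold or more. A change of 2-fold or more thus lay outside the interval for most of these genes but not for all.

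In the core of complex I, Ndufs1, its largest iron-sulfur subunit, had the largest difference. It measured 7.65, 7.99 and 7.74 in GBS, 7.63, 7.66 and 6.72 in GS, 7.27, 6.38 and 7.42 in GB, and 7.15, 7.22 and 6.84 in Control. GBS lay above Control on every array (difference 0.73, interval 0.08 to 1.38, adjusted p = 0.103). Ndufv2, an iron-sulfur protein of the NADH-binding module, also had every GBS array above Control (0.67, adjusted p = 0.127). Ndufv1, which carries the NADH site itself and sits next to Ndufv2 in the enzyme, averaged 6.55 ± 0.117 in GBS and 6.62 ± 0.035 in Control (SD, n = 3 each; difference -0.07, interval -0.25 to 0.11). Ndufs7 and Ndufs8, the iron-sulfur subunits that lead toward the quinone, differed by -0.01 and 0.06.

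Among the accessory subunits of complex I, Ndufs4, a subunit whose loss in mice causes a brain disease like Leigh syndrome, measured 8.73, 9.07 and 8.80 in GBS, 8.87, 8.81 and 8.10 in GS, 8.498, 6.733 and 8.561 in GB, and 8.15, 8.56 and 7.91 in Control. The values of GBS lay above those of Control on every array, but the interval was wide (difference 0.66, from -0.26 to 1.59), with GB array 2 more than 1 log2 unit below all other arrays. Ndufab1, the mitochondrial acyl carrier protein that also serves as a subunit, differed by 0.67 (adjusted p = 0.0997), Ndufb6 by 0.61 (adjusted p = 0.121) and Ndufb5 by 0.52 (adjusted p = 0.0885), all with GBS above Control on every array. At the other end was Ndufa5, a subunit of the matrix arm, with 7.37, 7.39 and 7.64 in GBS and 7.68, 7.78 and 7.60 in Control (difference -0.22, interval -0.55 to 0.11). The 2 groups overlapped for Ndufa5.

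Of the assembly factors, Ndufaf7, a mitochondrial methyltransferase, measured 7.02, 7.44 and 7.11 in GBS, 7.51, 7.17 and 6.92 in GS, 6.95, 6.57 and 7.12 in GB, and 6.88, 6.75 and 6.63 in Control. Both groups with SmoM2 lay above Control on every array (GBS minus Control 0.44, adjusted p = 0.106; GS minus Control 0.44, adjusted p = 0.645). Ndufaf3 had the lowest difference of the factors, -0.08 (interval -0.29 to 0.13). Ndufaf4 was 8.54, 8.48 and 8.39 in GBS, 8.26, 6.81 and 8.33 in GB, and 8.32, 8.39 and 8.11 in Control. Its difference was 0.20 in GBS against Control, with GBS above Control on every array, and -0.47 in GB against Control, where 1 of the 3 GB arrays carried most of the distance.

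The 4 subunits of complex II, which is also an enzyme of the citric acid cycle, had differences of both signs, and none was called. Sdha, the flavoprotein that oxidises succinate, measured 8.33, 8.69 and 8.66 in GBS, 8.24, 8.43 and 7.62 in GS, 8.09, 7.75 and 8.29 in GB, and 8.08, 8.17 and 7.95 in Control. GBS lay above Control on every array (difference 0.50, adjusted p = 0.108). Its iron-sulfur partner Sdhb differed by 0.07, and the membrane anchors Sdhc and Sdhd by 0.11 and -0.10, with overlapping groups for all 3.

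In complex III, besides Uqcrh, the differences in GBS against Control were 0.62 for Uqcrb, 0.56 for the core protein Uqcrc2 and 0.34 for Uqcrfs1, the Rieske iron-sulfur protein, none of them called. Uqcr11, a small subunit, measured 7.66, 7.82 and 7.77 in GBS, 8.08, 7.75 and 8.27 in GS, 7.94, 8.31 and 7.90 in GB, and 7.68, 7.97 and 8.20 in Control. It was the one tested gene of the complex with a negative difference (-0.20, interval -0.57 to 0.17), and its second probe set gave -0.19.

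**Figure D3:**
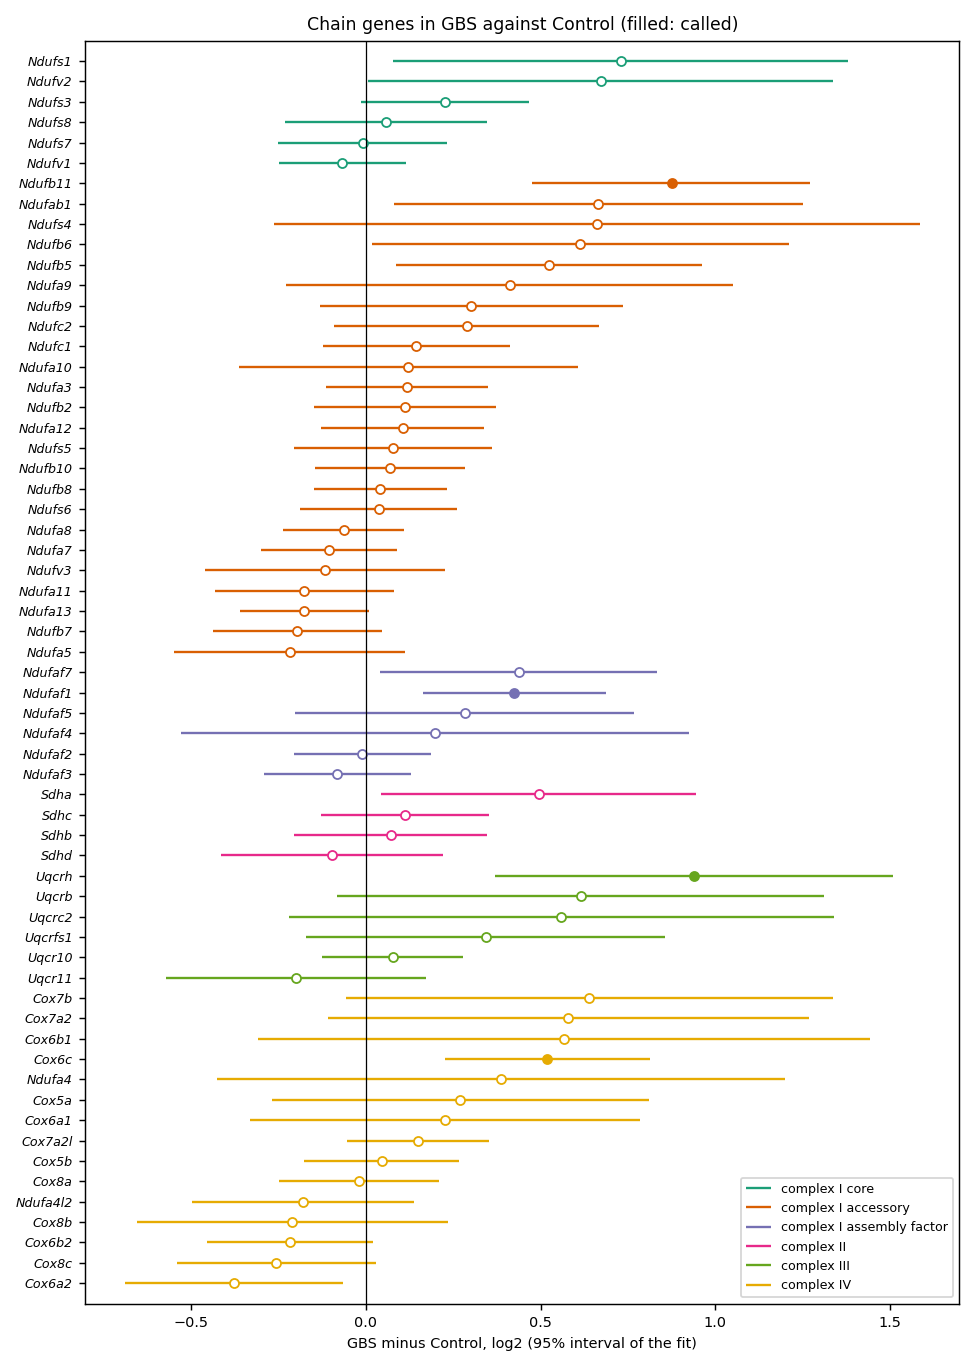
Difference of GBS minus Control in log2 (horizontal axis) for the 61 tested chain genes, ordered by role and then by size; bars are 95% intervals of the limma fit, and filled points are the 4 called genes. Each role holds genes on both sides of 0, and the intervals are widest for genes such as Ndufs4 and Cox6b1 that were lowest on GB array 2.

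Complex IV has subunits with a common isoform and one restricted to certain tissues, and the differences in GBS against Control had opposite signs in 3 such pairs, those of Cox6a, Cox6b and Ndufa4. Cox6a1, the common isoform, averaged 9.89 ± 0.147 in GBS and 9.66 ± 0.219 in Control (SD, n = 3 each; difference 0.23). Its counterpart of heart and skeletal muscle, Cox6a2, measured 7.46, 7.25 and 7.46 in GBS, 7.33, 7.42 and 7.71 in GS, 7.65, 8.09 and 7.60 in GB, and 7.79, 7.73 and 7.78 in Control. GBS and GS lay below Control on every array, and the difference in GBS was -0.38 ± 0.142 (interval -0.69 to -0.07), short of the test (adjusted p = 0.0864).

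No member of the other pairs was called. The common Cox6b1 had a difference of 0.57 and the testis isoform Cox6b2 one of -0.22. Ndufa4, a subunit first assigned to complex I, had 0.39, and its paralog Ndufa4l2, known as a gene induced by low oxygen, had -0.18. Cox7a2, the common isoform, had 0.58, while its muscle counterpart Cox7a1 lay under the filter, at 5.87 ± 0.089 in GBS and 6.00 ± 0.11 in Control (SD, n = 3 each). Cox8a, the common isoform, averaged 8.45 ± 0.071 in GBS and 8.47 ± 0.083 in Control (SD, n = 3 each; -0.02, interval -0.25 to 0.21), beside -0.21 for the muscle isoform Cox8b and -0.26 for the testis isoform Cox8c. Cox7b had 0.64 and was the uncalled complex IV gene with the largest difference. Cox7a2l, which joins complexes III and IV into supercomplexes, had 0.15, with all GBS arrays above Control.

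Markers of skeletal and heart muscle lay on the same side as the restricted isoforms. Of 14 tested muscle markers, 0 were called by limma, 0 had a positive difference and 4 were lower at an unadjusted p under 0.05, with a median of -0.23, and the log2 of their summed level was 10.82 to 10.96 in GBS, against 11.02 to 11.17 in Control. The receptor-gene medians of GBS also lay below those of Control, as given above. This side was not particular to muscle. A positive difference was found in 0 of 14 neuron, 0 of 6 oligodendrocyte-lineage and 0 of 5 microglia markers, and in 41.1% of all genes. All 9 dividing-cell markers and 6 of 8 progenitor markers had a positive one. The part of muscle RNA or of background in the values of these isoforms was not tested.

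SmoM2 by itself was read from GS against Control. Limma called 0 of the 61 chain genes, and without adjustment (p under 0.05) Ndufaf7 was the 1 gene higher and 0 were lower. Across all genes 0.0211% were called higher and 0% lower in this comparison, and 3.58% and 2.33% at an unadjusted p under 0.05. The median difference was 0.09 (all genes -0.02); it was 0.17 without GS array 3, 0.05 without GS array 1, 0.05 without Control array 3, 0.03 after quantile normalization, 0.16 with array weights and -0.06 with the covariate. Positive differences numbered 44 of 61, where 46.4% of all genes had one, and 56 intervals lay inside a 2-fold change. All arrays of GS lay above Control for 4 chain genes (6.56%) and below for 3 (4.92%), beside 8.09% and 9.43% of all genes.

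Stabilised beta-catenin by itself was read from GB against Control, which shares its Control arrays with the comparisons above. The count called by limma was again 0 of 61, where 0% of all genes were called, and 1 chain gene was lower at an unadjusted p under 0.05 (Ndufs6, an accessory subunit with a zinc site, -0.23) and 0 higher, beside 0.19% and 0.909% of all genes. The median difference was -0.02 (all genes 0.00), and its sign rested on single arrays: it was 0.09 without GB array 2, 0.003 without Control array 2, 0.04 without the 3 deviating arrays (0 called) and 0.07 with array weights. Positive differences numbered 24 of 61, where 50.8% of all genes had one, and 58 intervals lay inside a 2-fold change. GB arrays lay all above Control for 2 chain genes and all below for 2, beside 3.01% and 1.09% of all genes. The spread among the GB arrays was wide for several chain genes: Ndufs4 had an SD of 1.04 there, Cox6b1 one of 0.93 and Ndufaf4 one of 0.858 (n = 3 each).

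GBS against GS and GBS against GB ask what the second allele adds. Against GS, 0 of 61 were called by limma, where 3.56% of all genes were called higher and 1.51% lower. Without adjustment (p under 0.05), 3 were higher (Cox6c by 0.42, Ndufb11 by 0.55 and Sdha by 0.47) and 1 was lower (Ndufv1, -0.19), beside 10.7% and 7.92% of all genes. Called either way were 5.07% of all genes. Positive differences numbered 40 of 61, where 43% of all genes had one, and GBS lay above all GS arrays for 3 chain genes and below for 2, beside 16.5% and 12.4%. Against GB, 1 of 61 was higher and 0 lower, where 9.6% of all genes were called higher, 3.12% lower and 12.7% in either direction. The gene was Ndufb11, with a difference of 0.80 ± 0.18 (1.74-fold, interval 0.41 to 1.20, adjusted p = 0.0204), a call that ended without GBS array 2 (adjusted p = 0.103). Ndufb11 lies on the X chromosome, and Xist, the RNA of the inactive X, was at 4.91, 4.85 and 4.94 in GBS, 4.87, 10.83 and 10.28 in GS, 4.89, 8.66 and 10.53 in GB, and 4.92, 5.02 and 4.91 in Control. Sex was thus not matched in any comparison that uses GS or GB, the interaction included, while no GBS or Control array had a high Xist value; the part of sex was not tested. Without adjustment (p under 0.05), limma placed 16 chain genes higher in GBS than in GB and 2 lower, beside 21.9% and 19.8% of all genes, and 40 of 61 differences were positive, where 40.5% of all genes had a positive one. GBS arrays lay above all GB arrays for 20 chain genes (32.8%) and below for 3 (4.92%), beside 24.2% and 23.7% of all genes.

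Whether the 2 alleles add up was read from an interaction term, the difference of GBS and GS less that of GB and Control. It was called for 0 of 61 chain genes by limma, where 0.324% of all genes were called above additivity and 0.00704% below (0.331% either way). Positive estimates numbered 37 of 61, where 44.2% of all genes had one, and 2 were above at an unadjusted p under 0.05 (Ndufs6 with 0.38 and Sdhc with 0.34) and 0 below, beside 4.84% and 3.32% of all genes. The intervals were wide: 17 of 61 reached 2-fold. For Ndufb11 the estimate was 0.47 (interval -0.09 to 1.04), for Uqcrh 0.44 (-0.36 to 1.25) and for Cox6c 0.31 (-0.11 to 0.72).

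Single arrays weighed heavily on these genes. GBS array 2 was the highest of the 12 arrays for 29 of the 61 chain genes (47.5%), where it was highest for 24.3% of all genes. It was the lowest for 3 chain genes (4.92%), where it was lowest for 28.4% of all genes. GB array 2 was the lowest for 28 (45.9%), where it was lowest for 24.9% of all genes, and highest for 13 chain genes (21.3%), where it was highest for 44% of all genes. Taken as the median difference of the chain genes from their 12-array means, the arrays stood at 0.02, 0.27 and 0.05 in GBS, 0.10, 0.10 and -0.11 in GS, 0.00, -0.18 and 0.03 in GB, and -0.05, 0.02 and -0.09 in Control. The lowest 3 were GB array 2, GS array 3 and Control array 3, which also had the 3 highest receptor-gene levels (5.35, 5.23 and 5.23).

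Counts of calls moved with these arrays. Without those 3 arrays, 18 chain genes were higher and 1 lower in GBS against Control (all genes 23.5% and 18.9%), and 6 were higher and 1 lower in GS against Control (9.86% and 2.21% of all genes). Without GB array 2 alone, which enters the GBS and Control comparison only through the shared estimate of the spread, 16 were higher and 2 lower (23% and 20.2%). Leaving out GBS array 2 left 0 called (all genes 4.45% higher and 0.549% lower), as did leaving out Control array 3 (4.66% and 0.937%). Leaving out GBS array 3 or Control array 1 left 1, Ndufb11 (7.71% and 5.65% of all genes were higher). Leaving out GS array 2 left 2 (9.02% of all genes were higher). The share of all genes called higher was 11% with all arrays, so calls fell across all genes in each of these fits. The 18 and 16 genes called higher are 29.5% and 26.2% of the chain genes. With the receptor-gene level of each array as a covariate, 0 were higher and 6 lower (9.84% of the chain genes), beside 5.56% and 7.37% of all genes. The median difference was then -0.09. The receptor-gene levels of GBS and Control do not overlap, so that value is extrapolated from differences within groups.

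**Figure D4:**
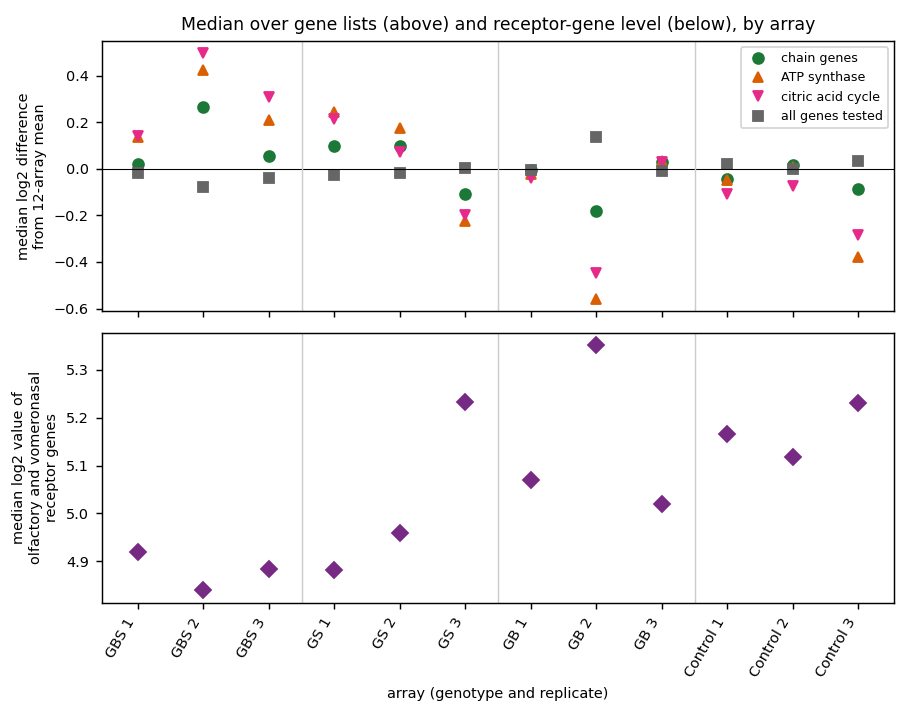
Upper panel: median over each gene list of the log2 difference from the 12-array mean, for the 61 chain genes, ATP synthase, the citric acid cycle and all 14195 genes tested, by array (GBS, GS, GB, Control from left to right). Lower panel: median log2 value of 1190 olfactory and vomeronasal receptor genes on the same arrays; the 3 arrays with the highest receptor-gene level have the lowest chain-gene medians.

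Genes next to the chain were read from lists chosen with earlier results on these arrays known. Of all genes tested, 11% were called higher and 4.35% lower in GBS against Control, and 23.5% and 18.9% without the 3 deviating arrays. The share called higher was 4.45% without GBS array 2, 5.65% without Control array 1 and 4.66% without Control array 3. ATP synthase had 16 tested genes, of which 2 were higher and 1 lower in GBS against Control, with a median of 0.45 and 15 positive differences. Atp5h, a stalk subunit, measured 7.88, 8.32 and 7.94 in GBS and 7.44, 7.64 and 7.63 in Control (0.48 ± 0.122, adjusted p = 0.0259). Atp5j, coupling factor 6 of the stalk, rose by 0.55 (adjusted p = 0.0322). Atp5g1, one of the isoforms of the membrane ring, measured 7.81, 7.80 and 7.78 in GBS and 8.15, 8.03 and 8.03 in Control (-0.27 ± 0.082, adjusted p = 0.0458). Leaving out GBS array 2 left 0 of the list called higher, as did leaving out Control array 1 or Control array 3, and leaving out the 3 deviating arrays gave 10. The call of Atp5g1 ended in 15 of 23 other settings.

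The list of the citric acid cycle, which feeds electrons into the chain, was drawn up to include genes of pyruvate dehydrogenase (Pdha1, Pdhb and Dlat). The list had 3 of 16 tested genes higher and 0 lower (all genes 11% and 4.35%), with a median of 0.49, and all 16 differences were positive. Idh2, the NADP-linked isocitrate dehydrogenase of mitochondria, measured 8.29, 8.80 and 8.25 in GBS, 7.54, 7.49 and 7.43 in GS, 7.69, 7.58 and 7.55 in GB, and 7.36, 7.49 and 7.48 in Control. GBS lay above all other arrays, by 1.003 ± 0.134 against Control (adjusted p = 0.00109), and the call held in all 23 other settings. Suclg2, a subunit of the GTP-forming succinyl-CoA ligase, rose by 1.19 ± 0.185 (adjusted p = 0.00273), with its call in all 22 settings where it was tested. Idh3g, a regulatory subunit of the NAD-linked isocitrate dehydrogenase, rose by 0.60 (adjusted p = 0.0304), and its call ended in 9 of 23 settings. Without the 3 deviating arrays 13 of the 16 were higher (all genes 23.5%).

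Assembly factors of complexes II to IV had 2 of 18 tested genes higher and 0 lower (all genes 11% and 4.35%), with a median of 0.04. Without the 3 deviating arrays 2 were higher and 1 lower (all genes 23.5% and 18.9%). The 2 called were Sdhaf2, which helps to attach the flavin to Sdha (0.58 ± 0.115, adjusted p = 0.00908), and Cox17, the copper chaperone of complex IV (0.43 ± 0.107, adjusted p = 0.0236). The call of Cox17 was lost on leaving out GBS array 2 or 3, or 1 Control array, whichever it was. Cox19, another copper-handling factor, had -0.18 (adjusted p = 0.139).

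Among other chain components, Cyc1, the cytochrome of complex III, had a difference of 0.24, the electron carrier cytochrome c (Cycs) one of 0.63 and the complex I assembly factor Tmem126b one of 0.45 (adjusted p = 0.131, 0.153 and 0.0508). Limma called 0 of 8 in this list, with 1 higher at an unadjusted p under 0.05. For the mitochondrial genome only ND3 of complex I and COX2 of complex IV had probe sets of their own. ND3 averaged 11.47 ± 0.15 in GBS and 11.59 ± 0.133 in Control (SD, n = 3 each), and COX2 averaged 12.46 ± 0.022 in GBS and 12.43 ± 0.088 in Control (SD, n = 3 each). Neither was called (adjusted p = 0.576 and 0.841).

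Regulators of mitochondrial genes went both ways, with 4 of 16 tested genes higher and 1 lower in GBS against Control (all genes 11% and 4.35%). Gabpa, the DNA-binding part of the ETS factor named above, measured 8.991, 9.308 and 9.003 in GBS, 8.48, 8.30 and 8.05 in GS, 7.98, 6.44 and 8.10 in GB, and 7.68, 7.74 and 7.13 in Control. GBS lay above all other arrays, by 1.59 ± 0.364 against Control (adjusted p = 0.0176), but the call was lost on leaving out GBS array 2 (adjusted p = 0.0831) or Control array 3 (adjusted p = 0.0783). Ssbp1, which coats single-stranded mitochondrial DNA, rose by 1.42 ± 0.34 (adjusted p = 0.0208); its call was lost on leaving out GBS array 2 or 1 Control array, whichever it was. Esrrg, a nuclear receptor that drives oxidative metabolism genes, measured 6.67, 6.28 and 6.67 in GBS and 7.22, 7.31 and 7.27 in Control. The difference was -0.73 ± 0.109 (adjusted p = 0.00214), and the call held in all 23 other settings. The other 2 higher genes, named after their values were seen, were Gabpb1, the partner of Gabpa (0.56, adjusted p = 0.0363), and Tfb2m, a transcription factor of the mitochondrial genome (0.66, adjusted p = 0.0426). Leaving out GBS array 2, or Control array 3, left 0 of this list called higher (all genes 4.45% and 4.66%). Leaving out the 3 deviating arrays gave 6 higher and 3 lower (all genes 23.5% and 18.9%).

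**Figure D5:**
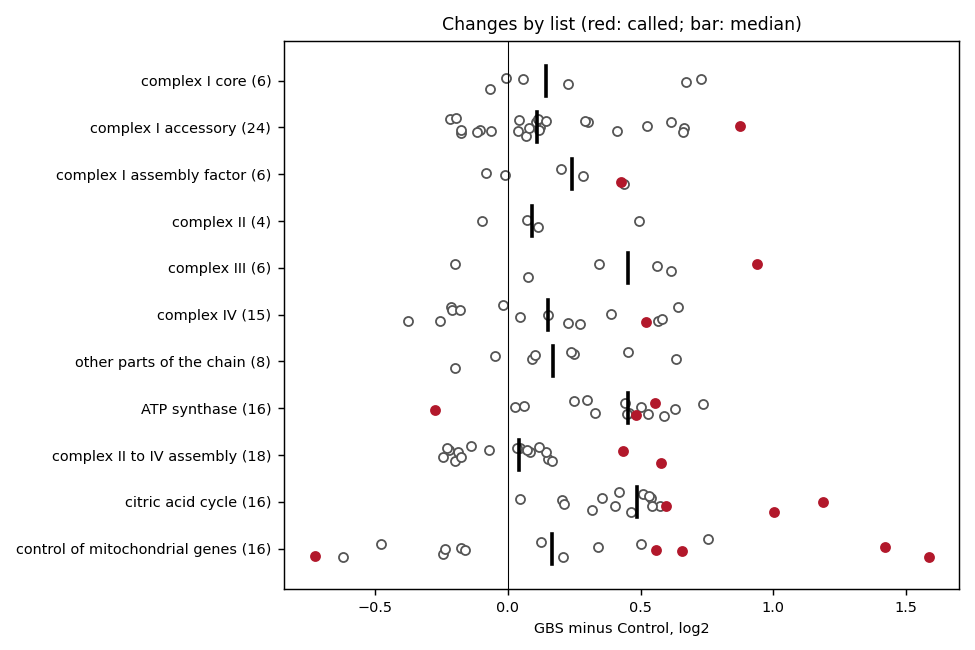
Difference of GBS minus Control in log2 for each tested gene (points), by role in the chain and by neighbouring list, with the number of genes in brackets; red points are called genes and the black bar is the list's median. The medians of ATP synthase (0.45) and of the citric acid cycle (0.49) lie near that of complex III (0.45) and above those of the other chain groups.

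Markers of cell types differed between the same groups. Beside the counts below stand 11% of all genes called higher and 4.35% lower, and 23.5% and 18.9% without the 3 deviating arrays. Without GBS array 2, 0.549% of all genes were called lower. Of 9 tested markers of dividing cells 8 were higher in GBS than in Control and 0 lower (median 2.30), with a log2 summed level of 11.95 to 12.83 in GBS and 10.22 to 10.55 in Control. Of 8 progenitor markers 5 were higher and 1 lower (median 0.90). All 14 neuron markers passed the filter, and 0 were higher and 5 lower (median -0.69), with a log2 summed level of 12.07 to 12.87 in GBS and 12.88 to 13.26 in Control, and leaving out GBS array 2, or 1 Control array, whichever it was, left 0 neuron markers called lower. Without the 3 deviating arrays the counts were 9 dividing-cell markers higher, 5 progenitor markers higher and 1 lower, and 11 neuron markers lower. Of 6 oligodendrocyte-lineage markers 2 were lower (median -0.39), all 6 lay below Control on every GBS array, and their log2 summed level was 9.15 to 9.35 in GBS and 9.67 to 9.74 in Control. Of 5 microglia markers 0 were called by limma, with 2 lower at an unadjusted p under 0.05. None had a positive difference and 4 lay below on every array (log2 summed level of the list 9.31 to 9.39 in GBS, 9.54 to 9.65 in Control). Of 4 meninges markers 1 was higher, Dcn by 3.79, while 3 lay below Control on every GBS array (median -0.21). The log2 summed level of the list was 11.11 to 11.17 in GBS and 9.69 to 9.83 in Control. Of 6 choroid plexus markers 1 was higher, Clic6 by 2.38, and 2 had a positive difference (median -0.24, lowest -1.53). The log2 summed level of that list was 9.66 to 10.23 in GBS and 9.36 to 10.75 in Control. In each of the meninges and choroid plexus lists 2 markers were lower at an unadjusted limma p under 0.05. Dcn and Clic6 were named after their values were seen. Of 4 astrocyte markers 1 was higher and 1 lower, and 0 of 7 endothelium and pericyte markers and 0 of 2 erythroid markers were called by limma, with 2 and 1 higher and 1 and 0 lower at an unadjusted p under 0.05. GBS array 2 had the highest summed level of the dividing-cell markers and of the chain genes (14.14, against 13.45 to 13.98 on the other arrays), and among the GBS arrays the lowest of the neuron markers. The part of these shifts in the values of the chain genes was not tested.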

How the data were processed

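Gene expression was measured on 12 Affymetrix arrays. The deposited values are on a log2 scale and the submitters' processing notes name RMA and Affymetrix Expression Console for them; the log2 scale was taken from their range, 2.82 to 13.83. Array medians ran from 6.52 to 6.69. The number of arrays limits the precision. As to software version, probe set library and genome build: not given in the sources used here.

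Names of the table's 35556 probe sets were taken from GEO's platform annotation, which lists 21789 with 1 symbol, 1621 with several and leaves 12146 unnamed here. Symbols were updated by gene ID through RefSeq (GRCm38.p6), which held 21698. A gene's brightest probe set was kept. Group means of the 4 genotypes were fitted together with limma 3.58.1 in R 4.3.3 (8 residual and 2.9 prior degrees of freedom), with two-sided tests. The procedure was tested on simulated data with independent noise. The simulated arrays held no deviation shared over many genes, unlike the arrays here, so that test does not check the calls under such deviations. The labels call the replicates biological but give no litter, batch or day.

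Genes named are those called in any contrast, the largest positive and negative difference in each role, the complex IV isoforms, and up to 3 genes per neighbouring list; other members were named after their values were seen. The members and lists were chosen with earlier results of these data known. Other filters, normalizations, weights, covariates and sets of arrays were tried; their effect is given at the end.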

Additional observations from a re-analysis of the deposited data

How the results depend on the processing

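Every count here is of chain genes called higher or lower by limma; 23 other settings were run, 11 of them with all or several arrays and 12 leaving out 1 array. In GBS against Control the counts were 4 higher and 0 lower. They were 5, 4, 3, 3, 4 and 3 higher and 0 lower with no filter, with the filter at percentile 60, with a gene's probe sets averaged, with quantile normalization, with arrays centred on their medians, and with limma's trend and robust settings. In these settings 8.04% to 13.7% of all genes were called higher and 2.87% to 4.96% lower. The chain-gene counts were 18 and 5 with array weights (all genes 25.4% and 29.1%) and 19 and 1 with only the groups compared (24.4% and 21.8%). They were 0 and 6 with the receptor-gene level as a covariate (5.56% and 7.37%), and 18 and 1 without the 3 deviating arrays (23.5% and 18.9%). Leaving out 1 array gave 0 to 16 higher and 0 to 2 lower (all genes 4.45% to 23% and 0.549% to 20.2%). With the replicate number as a block there was 1 higher and 0 lower (all genes 7% and 1.34%), and the block ended the calls of Uqcrh, Cox6c and Ndufaf1. The labels do not pair the arrays by number, and deviations of same-numbered arrays from their group means had correlations from -0.818 to 0.739. In GS against Control (0 and 0) array weights gave 28 and 6 (45.9% and 9.84% of chain genes, 29.6% and 28.8% of all genes), and the fit without the 3 arrays 6 and 1. In GBS against GS (0 and 0) array weights gave 3 and 2, the covariate 0 and 4, the fit without the 3 arrays 1 and 1, and leaving out 1 array 0 to 2 and 0. In GBS against GB (1 and 0) median centring gave 2 and 0, array weights 3 and 0, only the groups compared 0 and 0, the covariate 0 and 1, the fit without the 3 arrays 11 and 1, and leaving out 1 array 0 to 5 and 0 to 1. The interaction (0 and 0) had 1 higher with array weights; the fit with only the groups compared was not run for it, since it uses all 4 groups. For GBS against GS, GBS against GB and the interaction, the all-gene shares of the other settings are not given. Whether their chain-gene counts moved with the calls of all genes was therefore not read here. The array weights did not reach their convergence tolerance. With the covariate 5 genes turned from a positive difference in GBS against Control to a call lower: Cox6a1 (-0.49), Ndufa10 (-0.50), Ndufa4 (-0.68), Ndufa9 (-0.46) and Uqcrc2 (-0.50). The cause of these moves was not tested. Testing each probe set alone and recounting the neighbouring lists and their named genes in every setting were added after the data were seen.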
